A study of Mus musculus with 13 samples.

Results

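This account concerns 10 genes that mark a state of microglia, the resident macrophages of the brain: Spp1, Gpnmb, Itgax, Clec7a, Igf1, Lgals3, Lgals1, Fabp5, Cst7 and Cd9. They were chosen by symbol, each matched to 1 Ensembl gene ID, out of 55487 genes in the deposited table, and all 10 passed the filter on low counts that left 15511 genes to test. RNA was sequenced from cells selected with magnetic beads against CD11b from whole mouse brain on postnatal day 4 according to the titles, or days 3 to 5 according to the series text. The compared groups were pups labelled maternal immune activation (MIA, 5 libraries), whose mothers' immune systems were stimulated in pregnancy, and control pups (CON, 5 libraries). A further 3 libraries, MIA 6, MIA 7 and CON 6, carry titles that mark them as excluded and are shown as values. All pups had unperfused brains drained of blood by decapitation, with the meninges removed and the tissue digested at 37 °C. No source used here states the immune stimulus, the strain, the sex, the litter or whether a library came from 1 pup or several, and the p-values thus measure only the spread between libraries, which may be technical.

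In the first postnatal days, amoeboid microglia gather in the developing white matter and switch on genes for phagocytosis, lysosomes and lipid handling; these cells are known as proliferative-region-associated microglia (PAM). Disease-associated microglia (DAM), first described around amyloid plaques in mouse models of Alzheimer's disease, express much of the same set, and part of it depends on the receptor TREM2. The genes below fall into secreted factors (Spp1, Igf1, and the galectins Lgals3 and Lgals1), surface receptors and membrane proteins (Itgax, Clec7a, Gpnmb, Cd9) and intracellular proteins (the fatty acid carrier Fabp5 and the protease inhibitor Cst7).

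None of the 10 genes was higher and 1, Cst7, was lower in MIA by edgeR's quasi-likelihood test at a Benjamini-Hochberg threshold of 0.05. Of all 15511 genes tested, edgeR called 10.3%, 5.75% higher and 4.58% lower. At an unadjusted p under 0.05, edgeR put 0 of the 10 higher and 3 lower, where 11.4% of all genes tested were higher and 11.3% lower. DESeq2 called 0 of the 10 higher and 3 lower, where it called 7.99% of all genes higher and 6.92% lower, and limma-voom 0 higher and 1 lower, where it called 6.05% and 4.49%. The log2 fold changes of the 10 genes, MIA over CON, ran from -0.72 to -0.28 with a median of -0.40, against a median of -0.01 over all genes tested. Their signs depended on the scaling. With counts scaled to 12 homeostatic genes of microglia, 8 of the 10 had a log2 fold change above 0 and none passed. In that fit 6.39% of all genes tested had a log2 fold change below 0. The median there was 0.53 over all genes tested and 0.11 over the 10. Of all genes tested, edgeR then called 46.9% higher and 0.0193% lower. The control library CON 1 stood apart for several of these genes, and without it 7 of the 10 were lower in MIA, while 6.51% of all genes tested were. Leaving out CON 1 and CON 2 also gave 7 of the 10, where 5.38% of all genes tested were lower. The replicate number as a block gave 0 of the 10 lower, against 4.02% of all genes, and upper-quartile scaling and a strict filter gave 2 each, against 5.47% and 7.33%.

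Total counts ran from 25719147 to 29823415 in the MIA libraries, from 27900106 to 35593541 in the CON libraries and from 25387055 to 30486089 in the 3 excluded ones. Values are given in CPM, counts scaled to a common library size with TMM factors, unless another scale is named. All 12 homeostatic microglial genes, such as P2ry12 and Tmem119, were measured. Their summed level was 15930 to 20570 CPM in MIA, 24180 to 31210 CPM in CON and 21280 to 23980 CPM in the 3 excluded libraries. In CON 1 the 15 genes of tissue dissociation and immediate early response had a mean of 7.09 log2 CPM and in CON 2 of 7.01, against 8.33 to 8.87 in the other 11 libraries, and the 6 erythroid genes had 1.58 and 2.07 against 5.89 to 7.09. CON 1 also had the lowest mean of the 16 cell cycle genes, 6.26 log2 CPM against 6.73 to 7.05 in the other 12 libraries, and the highest mean of the 6 choroid plexus and ependymal genes, 7.26 against 1.08 to 6.76.

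Spp1 encodes osteopontin, a secreted phosphoprotein that binds integrins and CD44 and is a defining transcript of early postnatal white matter microglia. Spp1 stood at 2854, 2507, 3307, 1829 and 1278 CPM in MIA 1 to MIA 5, against 396, 3153, 2632, 4268 and 5121 CPM in CON 1 to CON 5. Both groups spanned a wide range and overlapped: CON 1 lay below every MIA library, and CON 4 and CON 5 lay above every one. The excluded libraries were all above the retained MIA range, at 4036 CPM in MIA 6, 3420 CPM in MIA 7 and 5609 CPM in CON 6. The mean was 2355 ± 808 CPM in MIA and 3114 ± 1802 CPM in CON (SD, n = 5 each). The log2 fold change of Spp1 was -0.40 ± 0.57 (SE; edgeR adjusted p = 0.755), a difference smaller than the spread between libraries. Without CON 1 it was -0.69 (edgeR adjusted p = 0.185). The annotated gene Gm42793 overlaps Spp1 on the same strand, and counts of Spp1 were not whole in 2 of the 13 libraries.

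Gpnmb encodes a transmembrane glycoprotein of lysosomes and phagosomes. Gpnmb stood at 217, 211, 225, 133 and 118 CPM in MIA 1 to MIA 5, against 38.1, 193, 208, 274 and 439 CPM in CON 1 to CON 5. Here too CON 1 was the lowest library and CON 5 the highest, with the MIA libraries in between. Itgax encodes CD11c, the integrin alpha chain that pairs with the beta2 chain. Itgax stood at 46.4, 40.6, 58.1, 40.3 and 33.5 CPM in MIA 1 to MIA 5, against 11.4, 53.6, 59.3, 77.4 and 84.6 CPM in CON 1 to CON 5. All 5 MIA libraries lay below the control median, yet CON 1 lay below them all. Counts of Itgax were not whole in 5 of the 13 libraries. The log2 fold changes were -0.35 ± 0.53 for Gpnmb and -0.39 ± 0.43 for Itgax (SE; edgeR adjusted p = 0.769 and 0.680). Without CON 1 that of Itgax was -0.65 ± 0.17 (SE; edgeR adjusted p = 0.0221), and Gpnmb, at -0.63, did not pass (adjusted p = 0.230); Gpnmb was at 0.02 without CON 5 (edgeR adjusted p = 0.990).

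**Figure D1:**
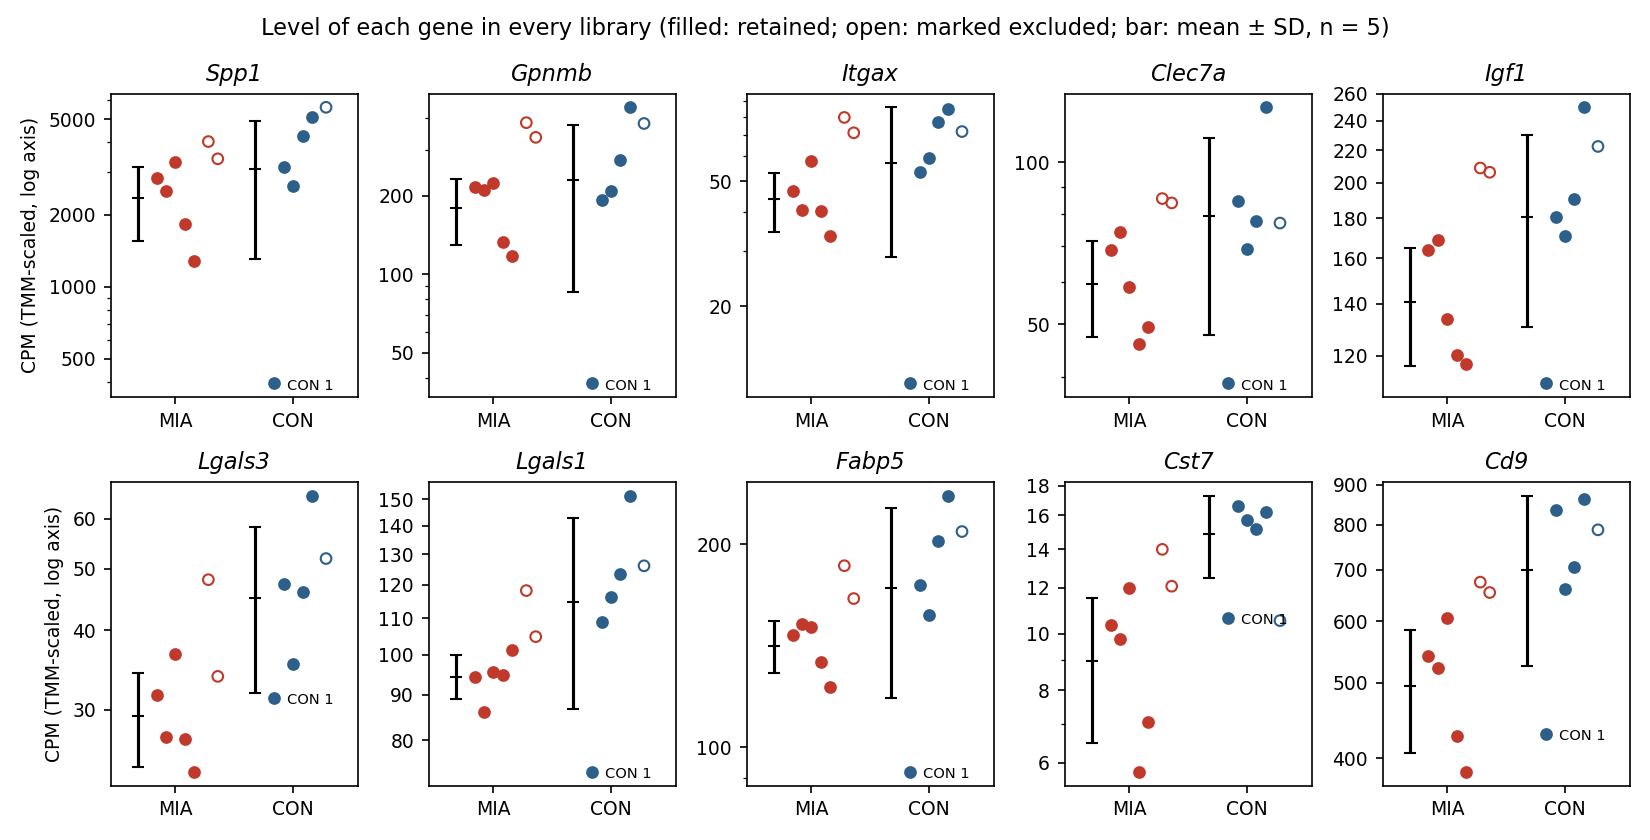
Level of each of the 10 genes in CPM on a log axis, 1 point per library, with MIA left of CON; filled points are retained libraries, open points the libraries marked excluded, and bars the mean ± SD of the 5 retained libraries. CON 1 lies below all 5 retained MIA libraries for 7 of the 10 genes (at 396 CPM for Spp1). The remaining control points lie mostly above the retained MIA points.

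Spp1, Gpnmb and Itgax were all lowest in CON 1, and their ratios to each other were set against the ratio of Spp1 to Cd9. Spp1 ran from 1278 to 3307 CPM over the MIA libraries and from 396 to 5121 CPM over the CON libraries, yet its ratio to Gpnmb stayed between 10.9 and 14.7 in MIA, 10.4 and 16.4 in CON and 10.2 and 14.8 in the excluded libraries. The ratio of Gpnmb to Itgax was 3.29 to 5.19 in MIA and 3.34 to 5.19 in CON. The ratio of Spp1 to Itgax was wider, 38.2 to 61.8 in MIA, 34.7 to 60.6 in CON and 48.0 to 78.0 in the excluded libraries. The ratio of Spp1 to Cd9 was 3.33 to 5.46 in MIA, 3.78 to 6.05 in CON 2 to CON 5 and 5.23 to 7.12 in the excluded libraries, but 0.921 in CON 1. CON 1 was thus far lower in Spp1, Gpnmb and Itgax than in Cd9.

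**Figure D2:**
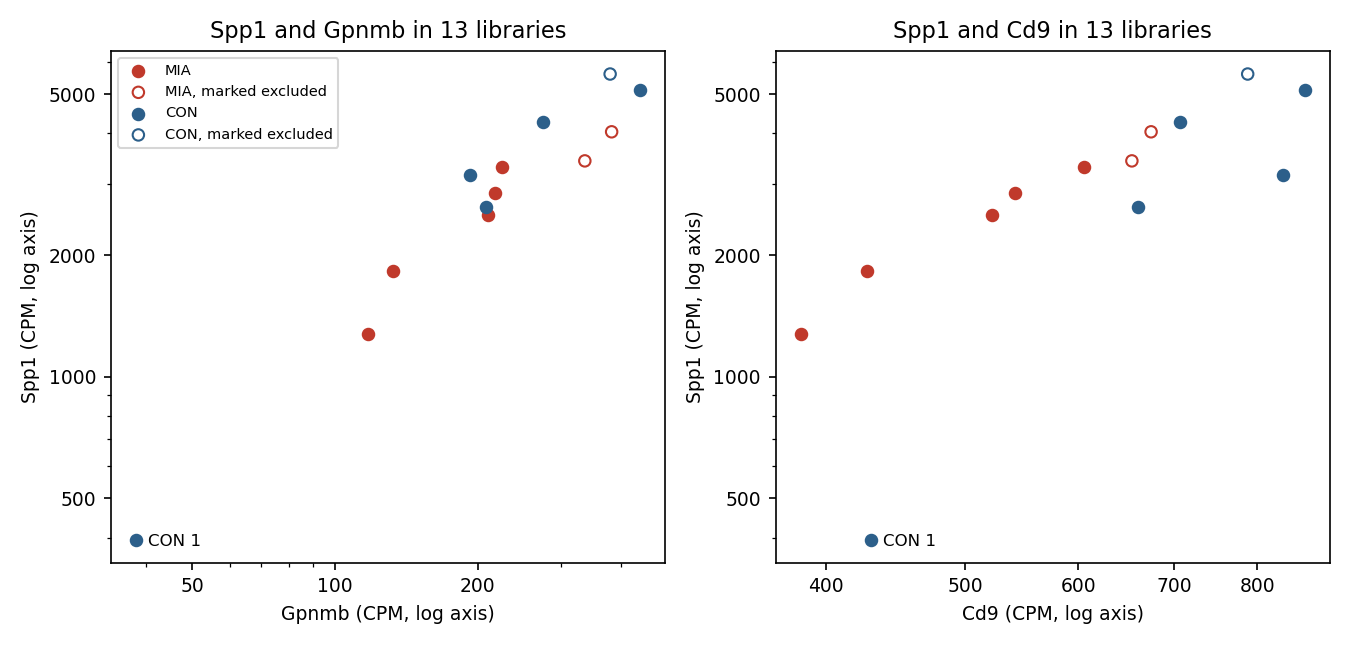
Spp1 against Gpnmb (left) and against Cd9 (right) in the 13 libraries, in CPM with log axes; filled points are retained and open points excluded libraries. Spp1 and Gpnmb keep a ratio of 10.2 to 16.4 over all libraries, CON 1 included, whereas CON 1 leaves the course of the other libraries when Spp1 is set against Cd9.

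The sequences just upstream of these 3 genes are shown because all 3 were lowest in CON 1, with the widest control spread of the 10. They are the 250 bases before the RefSeq transcription start on GRCm38.p6, 5′ to 3′ on the gene's strand (plus for each). For Spp1, which has 2 starts in the RefSeq table, the one nearest the annotated first base of the gene is shown. No source used here names the build behind the counts. Capitals mark exact matches, on either strand, to the ETS letters AGGAAG, a form of the site of the macrophage factor PU.1, or to the AP-1 motif TGANTCA. Shorter or looser forms of these sites were not searched for and are not marked.
Spp1, chr5:104434861-104435110: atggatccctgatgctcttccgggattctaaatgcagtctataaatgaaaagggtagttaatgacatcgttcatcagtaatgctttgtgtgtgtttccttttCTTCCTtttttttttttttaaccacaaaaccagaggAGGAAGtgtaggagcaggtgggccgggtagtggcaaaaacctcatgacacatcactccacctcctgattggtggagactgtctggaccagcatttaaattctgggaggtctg
Gpnmb, chr6:49036268-49036517: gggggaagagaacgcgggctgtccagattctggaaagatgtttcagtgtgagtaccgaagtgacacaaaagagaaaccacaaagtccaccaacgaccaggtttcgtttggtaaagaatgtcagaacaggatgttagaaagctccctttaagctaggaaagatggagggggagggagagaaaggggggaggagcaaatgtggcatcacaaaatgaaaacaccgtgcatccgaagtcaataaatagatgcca
Itgax, chr7:128129300-128129549: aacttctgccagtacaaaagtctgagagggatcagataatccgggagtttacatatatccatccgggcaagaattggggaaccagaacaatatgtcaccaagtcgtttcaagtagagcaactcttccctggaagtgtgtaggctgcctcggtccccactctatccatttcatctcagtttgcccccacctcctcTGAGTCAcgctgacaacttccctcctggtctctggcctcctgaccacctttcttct

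Spp1 holds the ETS letters AGGAAG at 148 and 112 bases upstream of the start, 1 match per strand. Itgax holds the AP-1 letters at 56 bases, and the Gpnmb window holds neither of these exact strings. RefSeq windows were at hand for 8 of the 10 genes. The letters AGGAAG were in 4 of the 8 (Cd9, Cst7, Igf1 and Spp1) and in 29.5% of all 32851 windows. The AP-1 motif was in 2 of the 8 (Igf1 and Itgax) and in 6.75% of all. Letters bound by the lysosomal regulators MITF and TFEB, CACGTG and TCATGTG, were in 0 of the 8, against 6.02% and 3.25% of all windows. No printed window holds matches to more than 1 of these motifs.

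Igf1 encodes insulin-like growth factor 1, a secreted growth factor that early postnatal white matter microglia supply to the myelinating tract. Igf1 stood at 164, 169, 134, 120 and 117 CPM in MIA 1 to MIA 5, against 111, 181, 171, 190 and 250 CPM in CON 1 to CON 5. Apart from CON 1, the lowest of all, the controls lay above every retained MIA library. In the excluded MIA 6, MIA 7 and CON 6, Igf1 was at 209, 206 and 222.5 CPM. Its log2 fold change was -0.36 ± 0.19 (SE; edgeR adjusted p = 0.290), and -0.49 ± 0.14 without CON 1 (SE; edgeR adjusted p = 0.0312). An antisense gene, Igf1os, overlaps Igf1 in the annotation and the libraries do not mark the strand; counts of Igf1 were whole in all 13 libraries.

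Lgals3 encodes galectin-3, a sugar-binding lectin that marks damaged lysosomes and can be secreted. Lgals3 stood at 31.7, 27.2, 36.7, 27.0 and 23.9 CPM in MIA 1 to MIA 5, against 31.3, 47.3, 35.5, 46.0 and 65.2 CPM in CON 1 to CON 5. CON 1 and CON 3 lay within the retained MIA range and the other retained controls above it. In the excluded MIA 6, MIA 7 and CON 6, Lgals3 was at 48.1, 33.9 and 51.9 CPM. Its log2 fold change was -0.62 ± 0.18 (SE; edgeR adjusted p = 0.0513), just short of the threshold; it passed in 7 of 23 alternative settings, among them the fit without CON 1 (edgeR adjusted p = 0.0107). Lgals1, galectin-1, is a smaller lectin that fibroblasts and vessel cells also express. Lgals1 stood at 94.3, 86.1, 95.7, 94.8 and 101 CPM in MIA 1 to MIA 5, against 73.6, 109, 116, 123 and 151 CPM in CON 1 to CON 5. The retained MIA libraries lay close together, below CON 2 to CON 5 and above CON 1. In the excluded MIA 6, MIA 7 and CON 6, Lgals1 was at 118, 105 and 126 CPM. The log2 fold change of Lgals1 was -0.28 ± 0.15 (SE; edgeR adjusted p = 0.285), and -0.41 ± 0.09 without CON 1 (SE; edgeR adjusted p = 0.00978).

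Clec7a encodes Dectin-1, a receptor for fungal beta-glucans that signals through the kinase SYK. Clec7a stood at 68.6, 74.3, 58.8, 46.0 and 49.4 CPM in MIA 1 to MIA 5, against 38.9, 84.9, 69.1, 77.9 and 126 CPM in CON 1 to CON 5. Its log2 fold change was -0.42 ± 0.27 (SE; edgeR adjusted p = 0.410), and it passed in 0 of the 23 alternatives, the lowest edgeR adjusted p being 0.0670, without CON 1. CON 5 exceeded every other library for Clec7a and CON 1 was below them all.

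Cd9 encodes a tetraspanin, a membrane protein that organises integrins and other surface proteins. Cd9 stood at 541, 522, 606, 427 and 384 CPM in MIA 1 to MIA 5, against 430, 834, 660, 706 and 863 CPM in CON 1 to CON 5. CON 2 to CON 5 lay above every retained MIA library, and CON 1 fell among the lower MIA libraries. In the excluded MIA 6, MIA 7 and CON 6, Cd9 was at 674, 654 and 788 CPM. Its log2 fold change was -0.49 ± 0.18 (SE; edgeR adjusted p = 0.116), and -0.63 ± 0.13 without CON 1 (SE; edgeR adjusted p = 0.00659). Counts of Cd9 were not whole in 11 of the 13 libraries, and the non-coding genes Gm26728 and Gm28809 overlap it on the opposite strand. Reads from stretches that these genes share with Cd9 cannot be told apart.

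Fabp5 encodes a carrier of fatty acids in the cytoplasm. Fabp5 stood at 147, 152, 151, 134 and 123 CPM in MIA 1 to MIA 5, against 91.9, 174, 157, 203 and 236 CPM in CON 1 to CON 5. The 4 upper controls lay above all retained MIA libraries, by a small margin for CON 3. In the excluded MIA 6, MIA 7 and CON 6, Fabp5 was at 186, 166 and 209 CPM. Its log2 fold change was -0.29 ± 0.20 (SE; edgeR adjusted p = 0.453), and -0.45 ± 0.11 without CON 1 (SE; edgeR adjusted p = 0.0158). Counts of Fabp5 were not whole in 10 of the 13 libraries, so its reads were in part shared with other loci and its level is uncertain to that extent.

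Cst7 encodes cystatin F, an inhibitor of lysosomal cysteine proteases. Cst7 stood at 10.3, 9.81, 11.98, 5.79 and 7.06 CPM in MIA 1 to MIA 5, against 10.7, 16.6, 15.7, 15.2 and 16.2 CPM in CON 1 to CON 5. CON 2 to CON 5 lay close together above all MIA libraries, and CON 1 within the MIA range. Cst7 fell in MIA to 0.605 of its control level (log2 fold change -0.72 ± 0.20, SE, edgeR adjusted p = 0.0371), with 5 of 5 MIA libraries below the control median. The call was lost in 7 of 10 fits that left out 1 library, with an edgeR adjusted p of up to 0.112; those libraries were CON 2, CON 3, CON 4, CON 5, MIA 2, MIA 4 and MIA 5. It was lost with all 13 libraries too, at a log2 fold change of -0.48 (edgeR adjusted p = 0.174). MIA 6 and MIA 7, at 13.98 and 12.1 CPM, were above every retained MIA library, and CON 6, at 10.5 CPM, was below every retained control.

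**Figure D3:**
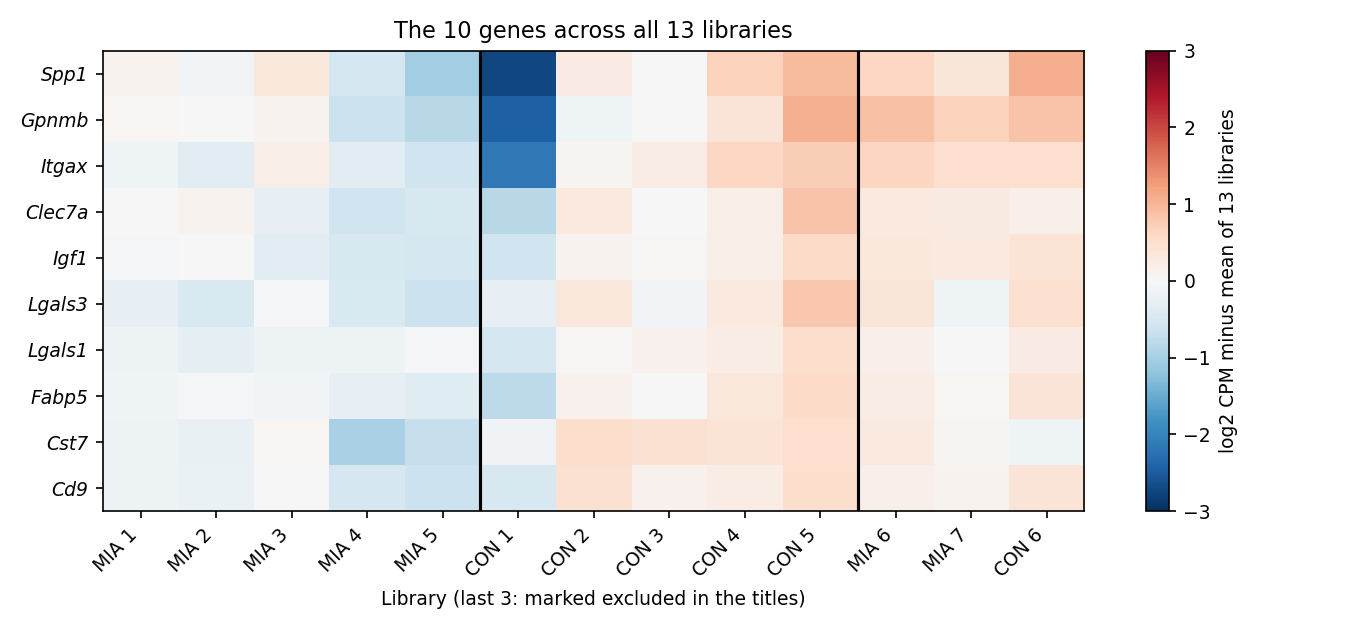
Level of each of the 10 genes in every library as log2 CPM minus the gene's mean over the 13 libraries; vertical lines part the retained MIA, the retained CON and the excluded libraries. CON 5 is red for all 10 genes, CON 1 is blue for all 10 and darkest for Spp1, Gpnmb and Itgax, and MIA 4 and MIA 5 are each among the 3 lowest libraries for 9 of the 10.

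Single libraries stood at the ends of the range for most of the 10 genes. CON 5 held the highest level of 13 libraries for 8 genes and CON 1 the lowest for 7, where 6.47% of all genes tested were highest in CON 5 and 15.2% lowest in CON 1. MIA 5 was lowest for 2 genes and MIA 4 for 1, and each was among the 3 lowest libraries for 9 of the 10, as for 23.9% of all genes tested in MIA 5 and 24.6% in MIA 4. Among controls the SD of log2 CPM was 1.49 for Spp1, 1.33 for Gpnmb and 1.18 for Itgax, against 0.29 for the median gene tested. Larger control SDs were found in 4.04%, 5.74% and 8.07% of all genes tested. Without CON 1 these SDs were 0.43, 0.54 and 0.31. Among MIA libraries the SD was 0.55 for Spp1, 0.44 for Gpnmb and 0.29 for Itgax. No gene of the 10 had retained groups that did not overlap. Of all genes tested, 4.36% had every retained MIA library below every retained CON library. Set against CON 2 to CON 5 only, 5 of the 10 had all retained MIA libraries lower (Igf1, Lgals1, Fabp5, Cst7 and Cd9). The same held for 7.68% of all genes tested.

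The libraries marked as excluded were set beside both groups. MIA 6 was above all 5 retained MIA libraries for 10 of the 10 genes, as for 18.1% of all genes tested, MIA 7 for 9 (18% of all) and CON 6 for 9 (17.6% of all). MIA 6 exceeded the control median for 8 genes, MIA 7 for 5 and CON 6 for 8. The share of all genes tested above the control median was not computed, so these counts are not read as a result about the 10 genes. MIA 7 lay below CON 2 to CON 5 for Lgals3, at 33.9 CPM, Lgals1, at 105 CPM, Cst7, at 12.1 CPM, and Cd9, at 654 CPM. It lay above CON 3 for Spp1, Gpnmb, Itgax, Clec7a, Igf1 and Fabp5. The share of all genes tested in these positions was not computed, so they are not read as a result about the 10 genes. For Gpnmb the excluded libraries stood at 383 CPM in MIA 6, 336 CPM in MIA 7 and 380 CPM in CON 6. With all 13 libraries in the fit, 0 of the 10 genes passed edgeR, where 2.71% of all genes tested were higher and 1.5% lower, and the median log2 fold change of the 10 was -0.24. With all 13 except CON 1, a fit added after the values were seen, Lgals1 and Cd9 were lower (edgeR adjusted p = 0.0408 for each), where 2.07% of all genes tested were. With all 13 except CON 1 and CON 2, 0 of the 10 and 0.231% of all genes tested were lower.

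**Figure D4:**
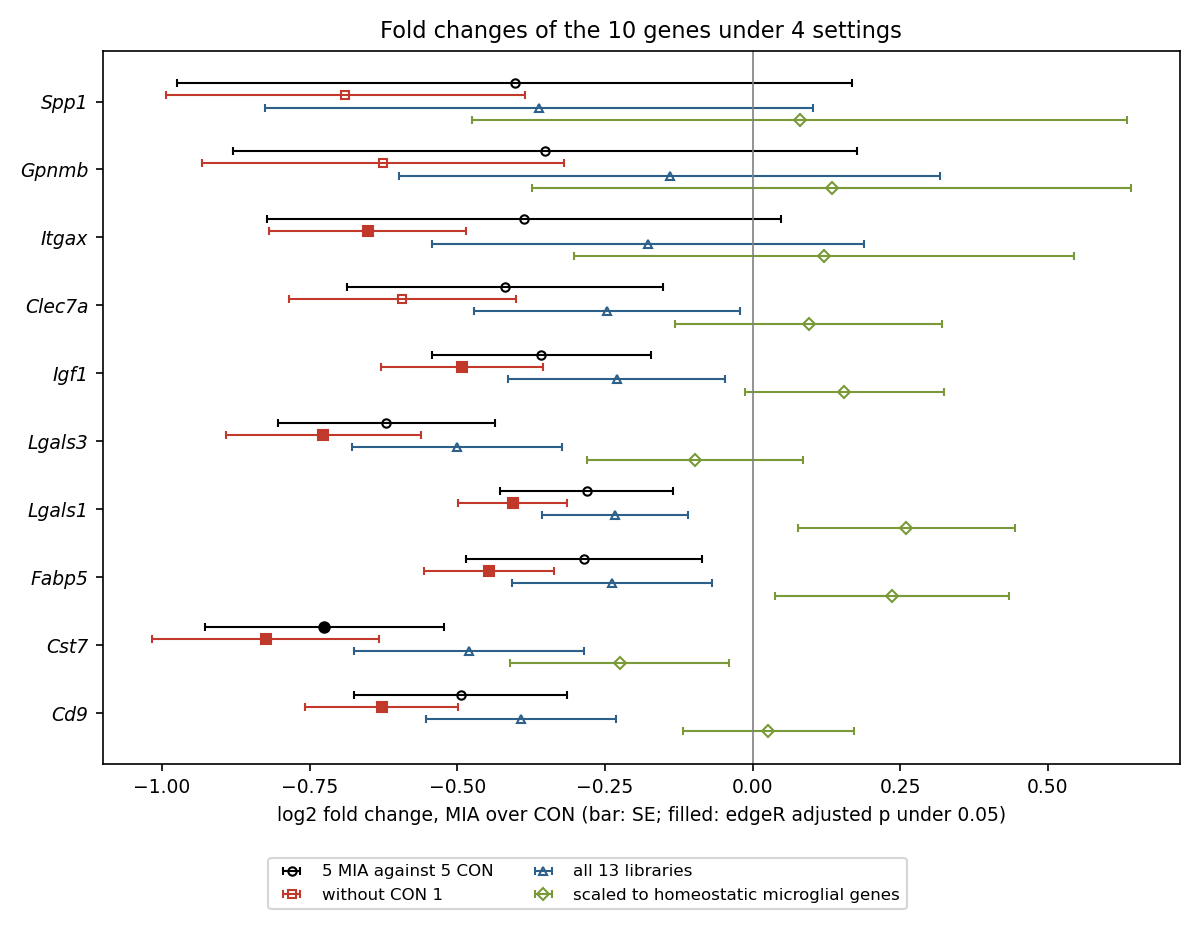
Log2 fold change of each of the 10 genes, MIA over CON, with its SE, from the 5 against 5 libraries, without CON 1, with all 13 libraries, and with counts scaled to 12 homeostatic microglial genes; filled symbols passed an edgeR adjusted p of 0.05. Only Cst7 is filled with all 10 retained libraries and 7 genes are filled without CON 1. Scaling to homeostatic genes places 8 of the 10 above 0 with none filled, and 6.39% of all genes tested below 0.

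Genes of other cell types and homeostatic genes differed between the groups as well. Of the 12 homeostatic genes 11 fell and 0 rose by edgeR (0 higher at an unadjusted p, by DESeq2 or by limma-voom), with a median log2 fold change of -0.50. In the fit of all 13 libraries 1 of the 12 was lower by edgeR, and none once CON 1 and CON 2 were removed from it. All 10 endothelial genes rose, with a summed level of 2654 to 4496 CPM in retained MIA and 898 to 1465 CPM in retained CON libraries. In the excluded libraries the sum was 2230 CPM in MIA 6, 2451 CPM in MIA 7 and 2807 CPM in CON 6. Of the 10 endothelial genes, 9 were higher in the fit of all 13 libraries. None passed once CON 1 and CON 2 were removed from it. In that reduced fit no neuronal, vessel wall or fibroblast gene passed either, and 0.33% of all genes tested were higher and 0.231% lower. Among the retained libraries alone without CON 1 and CON 2, all 10 endothelial genes were higher, where 6.83% of all genes tested were. There 10 of the 12 homeostatic genes were lower, where 5.38% of all genes tested were. With all 10 retained libraries, 4 of 10 neuronal genes rose. Their list summed to 106 to 158 CPM in MIA, 56.5 to 75.1 in CON and 64.4 to 75.3 in excluded libraries. Of 10 genes of vessel wall and fibroblasts 3 rose. That list summed to 887 to 1257 CPM in MIA, 633 to 1003 in CON and 1490 to 1587 in excluded libraries. No gene of these 4 lists was at 0 in all retained libraries, and their part in the values of the 10 genes was not tested. In such bulk samples, fewer microglia and less RNA of a gene per microglial cell cannot be told apart. Scaling to the homeostatic genes moved the median log2 fold change of all genes tested to 0.53 and called 46.9% of them higher. On that scale Cst7 was at -0.23 and Lgals3 at -0.10, Lgals1 at 0.26 and Fabp5 at 0.24, and none of the 10 genes passed. At an alternative scaling to total counts all 10 stayed below 0, from -0.67 for Cst7 to -0.21 for Lgals1.

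As log2 ratios to the mean of the homeostatic genes in the same library, 8 of the 10 genes were higher in MIA than in CON, and 3 of the 10 (Igf1, Lgals1 and Fabp5) once CON 1 was left out. Igf1 was at -2.60 ± 0.11 in MIA and -2.80 ± 0.43 in CON (SD, n = 5 each), or -2.65 in CON without CON 1. Clec7a was at -3.85 ± 0.12 in MIA and -4.04 ± 0.60 in CON, or -3.82 without CON 1. The difference without CON 1, MIA minus CON, ran over the 10 genes from -0.32 for Cst7 to 0.15 for Lgals1. Cst7 was at -6.59 ± 0.25 in MIA and -6.37 ± 0.24 in CON. These ratios are given without a test, and the share of all genes tested with a higher ratio in MIA was not computed. In the edgeR fit scaled to the same homeostatic genes, 6.39% of all genes tested had a log2 fold change below 0. A higher ratio is thus not particular to the 10 genes.

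Other macrophages and blood cells also express some of these genes. Of 10 markers of border-associated macrophages, such as Mrc1 and Lyve1, 1 fell (Stab1) and none rose, with a sum of 1290 to 2907 CPM in MIA and 2031 to 2990 CPM in CON. Of 9 tested genes of monocytes and dendritic cells 1 rose, Zbtb46, with sums of 40.6 to 53.3 CPM in MIA and 28.7 to 57.9 CPM in CON; Flt3, Ccr7, Xcr1 and Clec9a averaged under 1 CPM. Of 7 tested neutrophil genes none passed edgeR (0 higher and 2 lower at an unadjusted p, as by DESeq2; 0 by limma-voom), with sums of 28.5 to 63.9 CPM in MIA and 50.2 to 117 CPM in CON, and Ly6g averaged under 1 CPM. Their part in the levels of the 10 genes was not tested.

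Among 28 further genes of the PAM and DAM programmes, 9 fell and 2 rose, with a median log2 fold change of -0.40. Apoe, the lipid carrier, fell by 0.78 ± 0.10 in log2 terms, with 6728 ± 398 CPM in MIA and 11530 ± 1787 CPM in CON (SD, n = 5 each; edgeR adjusted p = 0.000481). The receptor gene Trem2 fell by 0.60 ± 0.11, and Lyz2, the lysozyme gene, by 0.57 ± 0.11 (SE). Of the lysosomal proteases Ctsd had 6457 ± 901 CPM in MIA and 9398 ± 1583 CPM in CON, and Ctsb 5493 ± 550 against 7993 ± 1363 CPM; both fell. The 2 that rose were Vim, a filament protein also made by endothelium and radial glia, by 0.59 ± 0.12, and Fth1, the heavy chain of ferritin, by 0.42 ± 0.08 (SE). Of these 28 genes 13 were lower without CON 1, and 3 with all 13 libraries. Scaled to the homeostatic genes, 0 were lower and 6 higher, and the median was 0.15.

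**Figure D5:**
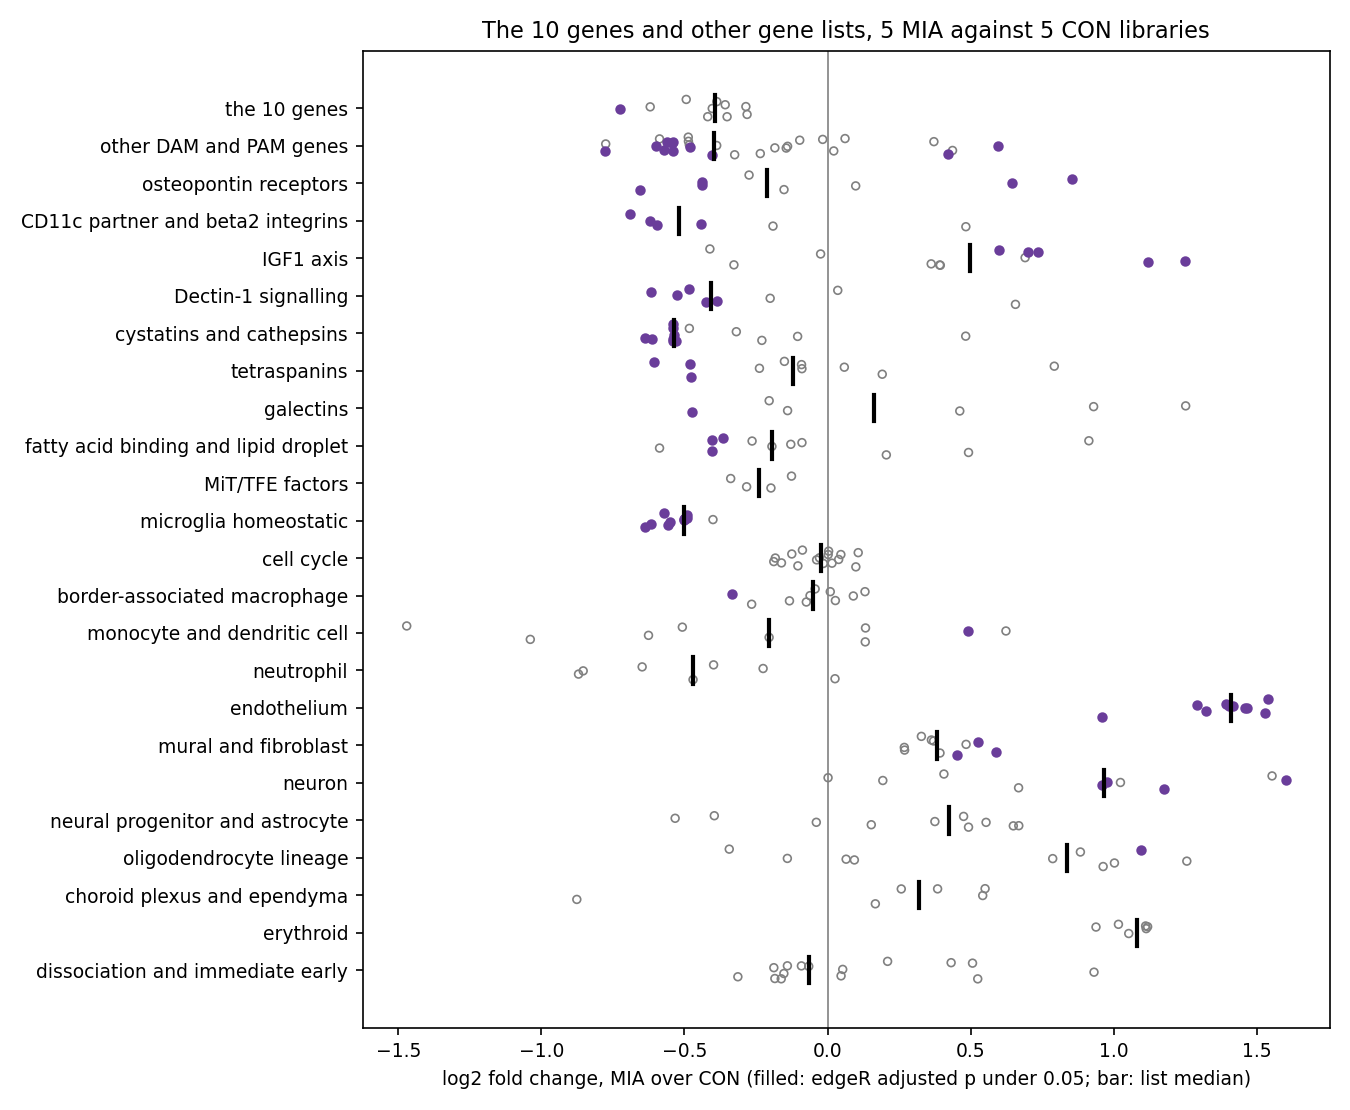
Log2 fold change of each tested gene, MIA over CON, by list; filled points passed an edgeR adjusted p of 0.05 and bars are list medians. The 10 genes lie between -0.72 and -0.28 with 1 filled. The homeostatic list has 11 filled points below 0, the endothelial list 10 above, and the cell cycle list none. Scaled to the homeostatic genes, the median is 0.11 for the 10 genes and 0.53 for all genes tested, and no list gene is called lower.

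The partners of the 10 genes by role are given next. Their calls depended on the scaling: scaled to the homeostatic genes, 0 genes of all the lists were lower. Of 8 chains that serve as receptors of osteopontin, Cd44, Itgb3 and Itgb5 were lower, with log2 fold changes of -0.44 ± 0.11, -0.65 ± 0.17 and -0.44 ± 0.12 (SE), and the integrin chains Itga4 and Itga5 rose, by 0.85 ± 0.19 and 0.65 ± 0.14; the most abundant, Itgb1, was at 531 ± 59.2 CPM in MIA and 496 ± 76.2 CPM in CON. With all 13 libraries 1 of the 8 rose and none fell. Of 6 tested genes around CD11c, 4 fell: Itgb2, the beta2 chain that CD11c pairs with, by 0.62 ± 0.10, Itgam, the CD11b chain used for the bead selection, by 0.60 ± 0.08, Itgal by 0.69 ± 0.13 and the integrin activator Fermt3 by 0.44 ± 0.09 (SE).

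In the IGF1 axis 5 of 12 genes rose and none fell (0 lower at an unadjusted p, by DESeq2 or by limma-voom). The receptor gene Igf1r had 37.8 ± 6.76 CPM in MIA and 23.3 ± 2.09 CPM in CON (SD, n = 5 each), and Insr, the insulin receptor, 35.05 ± 5.52 and 23.1 ± 3.37 CPM. Igfbp7, a binding protein abundant in brain endothelium, rose by 1.25 ± 0.26, the adaptor gene Grb10 by 1.12 ± 0.18 and Igf2r by 0.74 ± 0.17 (SE). These rose in the libraries in which endothelial genes were higher, and that part was not tested. With all 13 libraries 2 of the 12 rose.

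Of 8 genes of Dectin-1 signalling 5 fell, among them the kinase genes Syk by 0.43 ± 0.09 and Prkcd by 0.53 ± 0.08, the adaptor gene Card9 by 0.62 ± 0.14 and Vav1 by 0.49 ± 0.09 (SE). Of 13 cathepsins and other cystatins 8 fell, the largest shifts being those of Ctss by 0.64 ± 0.11 and the asparaginyl protease gene Lgmn by 0.61 ± 0.11 (SE). Ctsc, named after its value was seen because cystatin F inhibits it, was at 737 ± 135 CPM in MIA and 792 ± 116 CPM in CON and did not pass. With all 13 libraries 2 of the 8 and 1 of the 13 were lower. Of 10 further tetraspanin-related genes 3 fell, Cd37, Cd53 and Cd63, while the abundant Cd81 was at 1121 ± 74.0 and 1323 ± 172 CPM without passing. Of 6 further tested genes of galectins and related proteins only Lgals3bp, for a protein that binds galectin-3, fell, by 0.47 ± 0.10 (SE). Lgals9 was at 210 ± 18.1 and 232 ± 24.2 CPM without passing. Of 11 tested genes of fatty acid binding and lipid droplets 3 fell, the droplet coat gene Plin2 by 0.40 ± 0.08, Soat1 by 0.40 ± 0.11 and Npc2 by 0.37 ± 0.09 (SE). None of the 4 MiT/TFE factor genes Mitf, Tfec, Tfeb and Tfe3 passed edgeR, DESeq2 or limma-voom (0 at an unadjusted p).

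Proliferation was compared over 16 cell cycle genes. None passed edgeR in either direction (0 at an unadjusted p, 0 by DESeq2 and 0 by limma-voom). Their median log2 fold change was -0.02. Mcm3, of the replication helicase, was at 199 ± 17.5 CPM in MIA and 227 ± 39.3 CPM in CON, Top2a, a mitotic topoisomerase, at 211 ± 25.3 and 211 ± 52.7 CPM, and Mcm6 at 208 ± 17.1 and 221 ± 39.8 CPM (SD, n = 5 each). Without CON 1, 1 of the 16 was lower, and scaled to the homeostatic genes 15 were higher.

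Per kilobase of the longest coding transcript, Spp1 was the most abundant of the 10 genes, at 1563 ± 536 CPM per kilobase in MIA and 2066 ± 1195 in CON (SD, n = 5 each). Cd9 came next, at 404 ± 72.9 and 569 ± 141 CPM per kilobase, then Fabp5 at 143 ± 12.8 and 174 ± 54.7 and Lgals1 at 118 ± 6.76 and 143 ± 35.03. Gpnmb followed at 48.8 ± 13.8 and 62.2 ± 39.2 CPM per kilobase. Clec7a, Lgals3 and Igf1 lay between 19.97 and 26.1 in MIA means and between 25.6 and 34.9 in CON means. Itgax, at 10.8 ± 2.28 in MIA and 14.2 ± 7.07 in CON, and Cst7, at 9.12 ± 2.56 and 15.1 ± 2.44, were the lowest and changed places between the groups. In MIA the ranges of neighbours in this order overlapped except from Spp1 to Cd9, Cd9 to Fabp5, Lgals1 to Gpnmb and Igf1 to Itgax; in CON they overlapped except from Cd9 to Fabp5.

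The genes whose pattern lay nearest to that of Spp1 were Atp6v0d2, a proton pump subunit of macrophages and osteoclasts, with a mean absolute difference of 0.19 in centred log2 CPM over the 13 libraries, Gpnmb with 0.20 and Itgax with 0.25, where the median over 8747 genes of at least 10 CPM was 0.69. For Gpnmb they were Spp1, the heparanase gene Hpse (0.21) and Itgax. Itgax lay nearest to Hpse (0.20) and to the monocarboxylate transporter gene Slc16a3 (0.20). Without CON 1, Atp6v0d2, Gpnmb and Itgax were still the 3 nearest to Spp1, whereas Gpnmb was 69th for Itgax. Clec7a and Igf1 lay near each other (0.11) and near Ctsl and the chemokine gene Ccl9. Cd9 lay nearest to Ank, a pyrophosphate transporter gene (0.07), Serpine2 (0.08) and Ctsl (0.10), Lgals3 to Cd9 (0.15) and the lysosomal hydrolase genes Gla and Galns, and Cst7 to the integrin gene Itgb3 (0.15), the cathepsin gene Ctsz and Sdf2l1. Lgals1 lay nearest to Cstb, H2-K1 and Cmtm3, and Fabp5 to Fblim1, Tmem106a and Prim1. Without CON 1, Cstb and H2-K1 were 16th and 15th for Lgals1, and Fblim1 and Tmem106a 10th and 9th for Fabp5. Ctsz and Sdf2l1 were then 12th and 22nd for Cst7, Ctsl 14th for Cd9 and Hpse 9th for Itgax. Cd9, Gla and Galns remained the 3 nearest to Lgals3, Clec7a and Igf1 nearest to each other, and Ank nearest to Cd9.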

How the data were processed

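Per the labels' protocols, poly(A) RNA was amplified with a modified Smart-Seq2 protocol and a tagmentation kit, which does not mark the strand. RSEM, STAR and DESeq2 are listed in the submitters' processing notes with neither version nor role, and no source used here names the genome build. The authors deposited expected counts per gene, not scaled across libraries; 20.6% of nonzero values were not whole, and all were rounded. Symbols were matched by Ensembl ID (55141 of 55487). The main test was edgeR's robust quasi-likelihood test (version 4.0.16, R 4.3.3) on TMM-scaled counts of the 15511 genes kept by filterByExpr, with group as the only term and Benjamini-Hochberg adjustment at 0.05; the SE is the absolute log2 fold change divided by the square root of F. CPM are TMM-scaled over the 13 libraries, and log2 CPM use a prior count of 2. DESeq2 1.42.0, limma 3.58.1 (voom), other scalings and filters, a replicate block and other sets of libraries were alternatives. Lists are described by counts and medians without a set test. A count of 3 equals 0.0875 to 0.117 CPM. Transcript lengths are from GENCODE M21, promoters from RefSeq GRCm38.p6. The pipeline was tested on simulated data of 5 against 5 libraries. It recovered 26% of genes changed 1.5-fold, 62% of those changed 2-fold and 90% of those changed 4-fold. Of its 123 calls 2.44% were false. Many differences of 1.5-fold would thus be missed. Named were the 10 genes, up to 4 called and up to 3 abundant genes of each list (not all are printed), and the 3 genes nearest in pattern. The 10 genes and all lists were chosen with earlier results of these data known.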

Additional observations from a re-analysis of the deposited data

Results flagged for a closer look

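Of 20 groups of 5 libraries tested for a single library far from the rest on the log2 CPM scale, 3 held one. Chance flags about 1 in 20 independent groups, but these are 10 genes in the same libraries, so the 3 are not separate events. All 3 concern CON 1 as the lowest control. For Spp1 the gap between CON 1 and the nearest control was 0.740 of the group's range, for Itgax 0.772 and for Cst7 0.799, above the critical value of 0.71. CON 1 is also the library with the lowest cell cycle mean and, with CON 2, low dissociation and erythroid means; whether these share a source with the low levels of the 10 genes was not tested.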

How the results depend on the processing

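Below, counts are higher then lower genes, MIA over CON. With all 10 retained libraries 892 and 710 of all genes, 0 and 1 of the 10 genes, and 28 and 44 list genes passed. With all 13 libraries these were 424 and 235, 0 and 0, and 20 and 11; with all 13 except CON 1, 443 and 326, 0 and 2, and 17 and 17; with all 13 except CON 1 and CON 2, 53 and 37, 0 and 0, and 0 and 5. Without CON 1 and CON 2, 7 of the 10 genes were lower. Scaled to homeostatic genes, 7267 and 3 of all genes, 0 and 0 of the 10 genes, and 93 and 0 list genes passed. Log2 fold changes turned positive for Spp1 (0.079), Gpnmb (0.13), Itgax (0.12), Clec7a (0.095), Igf1 (0.16), Lgals1 (0.26), Fabp5 (0.24) and Cd9 (0.027). On that scale 6.39% of all genes tested were below 0. Leaving out 1 library gave 672 to 1238 and 365 to 1025 of all genes, 0 to 7 lower of the 10 genes, and 26 to 33 and 30 to 52 list genes; Gpnmb was at -0.626 without CON 1 and 0.017 without CON 5. DESeq2 put 3 of the 10 lower, the strict filter (10 CPM in 5 libraries) 2 and upper-quartile scaling 2. The cause of these shifts was not tested. With the replicate number as a block 0 of the 10 genes passed (Cst7 edgeR adjusted p = 0.0535). The titles do not say whether the numbers pair the libraries. Same-numbered libraries correlated at 0.058 to 0.302, and 2 of 5 MIA libraries correlated best with their own number. So few correlations cannot decide whether libraries of the same number share a batch.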
